A study of Mus musculus with 16 samples.

Results

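The 9 genes described here, Myh7, Myl2, Myl3, Tnni1, Tnnt1, Tnnc1, Tpm3, Myoz2 and Csrp3, encode contractile and Z-disc proteins of slow muscle fibres, and they were taken by symbol from the 14538 genes of an RNA-seq table of mouse tibialis anterior, the muscle at the front of the lower leg. Each of the 16 libraries came from a different male wild-type mouse, labelled C57BL/6 and, in the study's methods, C57BL/6J, that was housed alone at about 29 °C and had eaten a high-fat, high-fructose diet (the NASH diet) from 8 weeks of age. Vehicle was given to 5 mice and recombinant GDF15, a circulating protein that lowers food intake through a hindbrain receptor, to 6 mice by daily subcutaneous injection. The 5 pair-fed mice were offered each day what GDF15-treated mice had eaten on the day before. The labels list GDF15 doses of 0.3, 1 and 5 nmol/kg without saying which of them, or how many days of treatment, these muscles had.

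Slow, or type I, fibres contract slowly, resist fatigue and use a set of sarcomere genes that differs from the set of fast fibres. A myosin heavy chain is the motor of the thick filament, with an essential and a regulatory light chain at its neck. Troponin C, I and T and tropomyosin make contraction depend on calcium at the thin filament, and the Z-disc anchors thin filaments and holds sensors of load. The tibialis anterior of the mouse is a fast muscle in which type I fibres are rare, and Myh7, Myl2, Myl3, Tnnc1, Myoz2 and Csrp3 are also abundant in heart. In whole muscle, fewer slow fibres and less slow RNA per fibre cannot be told apart.

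The bases before a transcript start of Myh7, Tnni1, Tnnt1 and Tnnc1 are shown, since these are 4 of the 5 members that were highest in the same 3 libraries. The fifth, Myl2, is not printed because its RefSeq window lies 7762 bases from the nearest start of a principal transcript (the main annotated form) in GENCODE. That window held TATAAA but not CCACCC. Each run is the RefSeq window of 250 bases upstream of a transcript start on build GRCm38.p6, 5′ to 3′ on the strand of the gene. The windows are chr14:54994627-54994876 on the minus strand for Myh7, chr1:135799171-135799420 on the plus strand for Tnni1, chr7:4515976-4516225 on the minus strand for Tnnt1 and chr14:31208062-31208311 on the plus strand for Tnnc1. Those of Tnni1 and Tnnt1 lie inside the annotated genes, which begin further upstream. Capitals mark matches on either strand to CATTCC (the MCAT element that TEAD factors bind), CCACCC (a box that SP and KLF factors bind), TGGAAA (the core bound by NFAT), TATAAA or the MEF2 site, named for the muscle factor that binds it.
Myh7: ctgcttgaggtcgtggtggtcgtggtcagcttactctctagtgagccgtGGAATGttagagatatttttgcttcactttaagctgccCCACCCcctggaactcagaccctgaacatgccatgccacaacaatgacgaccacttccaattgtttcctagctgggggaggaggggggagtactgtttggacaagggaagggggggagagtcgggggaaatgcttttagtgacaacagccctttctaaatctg
Tnni1: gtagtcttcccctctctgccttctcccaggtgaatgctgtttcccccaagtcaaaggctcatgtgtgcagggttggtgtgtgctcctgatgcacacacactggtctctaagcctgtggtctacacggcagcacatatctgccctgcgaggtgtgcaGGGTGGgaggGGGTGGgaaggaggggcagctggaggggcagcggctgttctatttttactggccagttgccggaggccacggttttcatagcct
Tnnt1: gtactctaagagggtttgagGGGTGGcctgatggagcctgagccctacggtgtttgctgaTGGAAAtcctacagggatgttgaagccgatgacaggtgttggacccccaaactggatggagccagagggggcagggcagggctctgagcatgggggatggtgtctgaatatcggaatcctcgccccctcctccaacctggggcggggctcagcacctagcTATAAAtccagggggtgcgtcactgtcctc
Tnnc1: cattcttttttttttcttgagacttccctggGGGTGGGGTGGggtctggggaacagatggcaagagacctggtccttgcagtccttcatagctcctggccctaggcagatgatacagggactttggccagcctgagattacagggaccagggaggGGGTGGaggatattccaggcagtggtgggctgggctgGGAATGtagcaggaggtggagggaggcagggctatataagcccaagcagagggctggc

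All 4 windows held CCACCC, whose first base lay at -163 in Myh7 and at -230 in Tnnt1, counted from the transcript start that follows the window. Myh7 also held CATTCC at -201, and Tnnt1 held TATAAA at -30. Over the windows of all 9 members, 7 held CCACCC, against 27.7% of the 27025 mouse promoters searched in the same way. CATTCC was present in 3 member windows (12.6% of all promoters), those of Myh7, Myl3 and Tnnc1. TGGAAA was in 3 (18.7% of all), TATAAA in 2 (12.97%) and the MEF2 site in 1 (3.01%), that of Myoz2. A match to CCACCC shares letters with one to CATTCC in Myl3 and with another to CCACCC in Tnnc1 and Csrp3. A match is a run of letters, not a bound site.

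The values below are normalized counts, which are reads per gene after the scaling of libraries, transformed back from the deposited log2 values. The libraries held about 9482763 to 15039282 reads in the table's genes, with medians of 13949577 in vehicle, 12137939 in GDF15 and 14276254 in pair-fed mice. The labelled muscle was checked by its fast-fibre markers, of which Myh4, the heavy chain of type IIb fibres, took 78.2% to 92.1% of the counts of the 4 adult heavy chains (Myh7, Myh2, Myh1 and Myh4). Members were rare beside their fast counterparts. Per kilobase of the longest principal transcript of a gene, the median level over 16 libraries was 14.2 normalized counts for Myh7 and 652 for Myl3. These were the lowest and highest of the members, and Myh4 stood at 143275. Together the members took 0.00945% to 0.0345% of a library's counts.

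The 3 libraries from GDF15 mouse 1 and pair-fed mice 3 and 6 stood apart from the other 13 in these genes. They ranked as the 3 highest of 16 in 5 of the 9 members, Myh7, Myl2, Tnni1, Tnnt1 and Tnnc1, and no vehicle mouse was among them. The differences between groups, the Myh7 share and the spread are therefore given with and without them. They were picked for their Myh7 values, so a value without them is a description that this choice shapes.

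**Figure D1:**
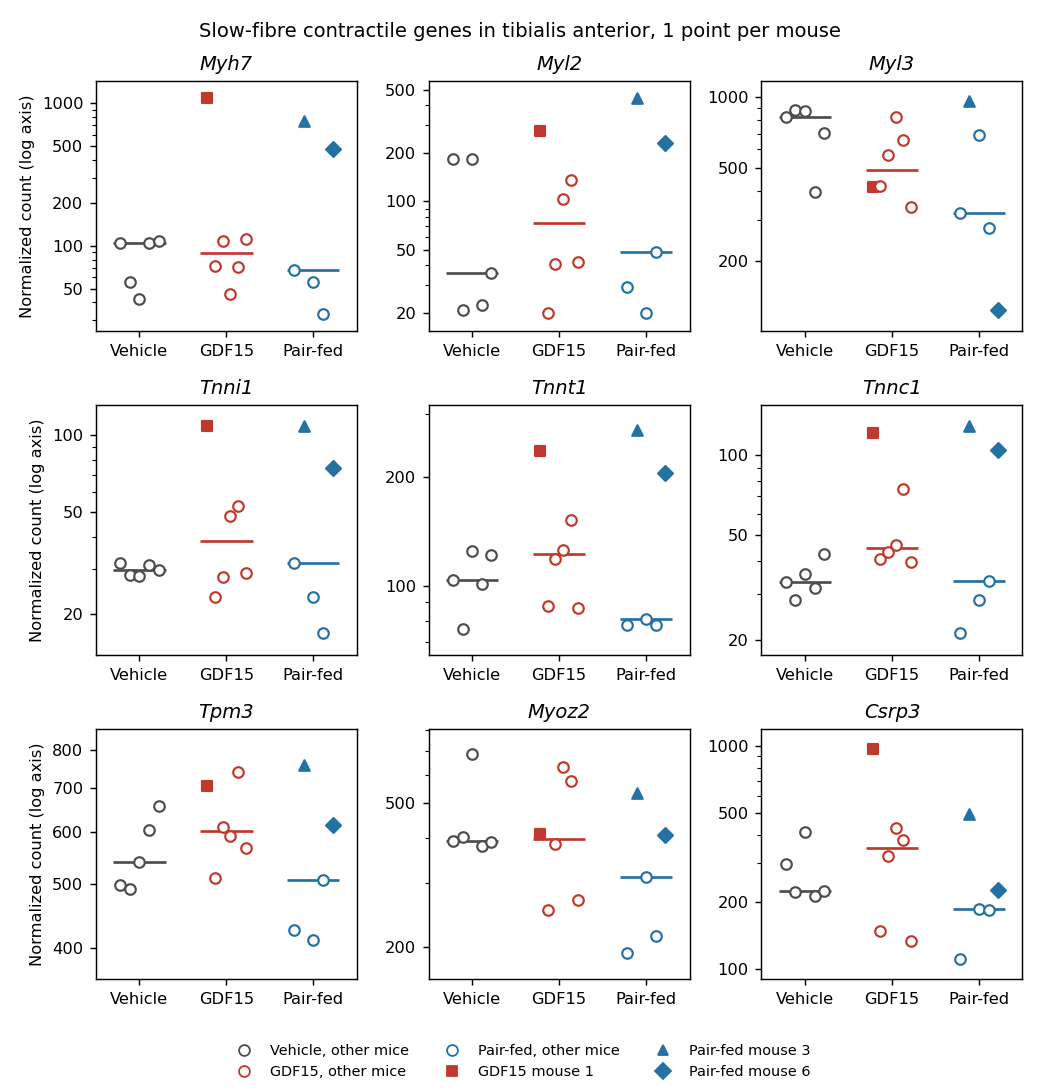
Normalized count (log axis) of each of the 9 slow-fibre contractile genes in every mouse, by group, with horizontal lines at the group medians. Filled symbols mark GDF15 mouse 1 and pair-fed mice 3 and 6, which lie above all other mice in Myh7, Myl2, Tnni1, Tnnt1 and Tnnc1 but not in Myl3 or Myoz2.

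Myh7 encodes the slow myosin heavy chain and is the defining gene of type I fibres. The gene lies at chr14:54970684-54994626 on the minus strand of GRCm38. Its normalized counts were 105, 56.1, 42.1, 105 and 108 in vehicle mice 1 to 5. In GDF15 mice 1 to 6 they were 1094, 71.8, 107, 45.6, 70.6 and 112. In pair-fed mice 2 to 6 they were 67.2, 746, 55.8, 33.1 and 481. The other 13 libraries thus lay between 33.1 and 112 with a median of 70.6, and pair-fed mice 3 and 6 stood at 10.6 and 6.82 times that median, with GDF15 mouse 1 higher still. The group means were 83.2 ± 31.6 (SD, n = 5) in vehicle, 250.2 ± 414 (n = 6) in GDF15 and 277 ± 322 (n = 5) in pair-fed mice, so the SD exceeded the mean in both treated groups.

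As a percent of the 4 adult heavy chains, whose transcripts have nearly the same length, Myh7 made up 0.00389% to 0.0111% in vehicle, 0.00485% to 0.106% in GDF15 and 0.00299% to 0.0769% in pair-fed mice. The mean share was 0.00820% ± 0.00305 in vehicle (SD, n = 5), 0.0245% ± 0.0398 in GDF15 (n = 6) and 0.0276% ± 0.0331 in pair-fed mice (n = 5). None of the 3 differences passed an exact two-sided permutation test over mice. The p-value was 0.870 for GDF15 against pair-fed, 0.537 for GDF15 against vehicle and 0.421 for pair-fed against vehicle by this exact permutation test, with Benjamini-Hochberg adjusted values of 0.870, 0.805 and 0.805, where 0.00433 or 0.00794 is the smallest p the group sizes allow. Without the 3 libraries the mean share of pair-fed mice differed from that of vehicle mice by -0.00346 percentage points, where with them it had differed by 0.0194. In the same exact two-sided permutation test the p-value was then 0.143, and it was 0.107 for GDF15 against pair-fed, with an adjusted value of 0.214 for both.

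The heavy chains of fast fibres did not stand apart in these libraries. Myh2, the heavy chain of type IIa fibres, reached 1.03, 1.24 and 0.823 times the median of the other 13 libraries in GDF15 mouse 1 and pair-fed mice 3 and 6. Myh1, that of type IIx fibres, reached 0.828, 1.01 and 0.691 times and Myh4 1.05, 0.936 and 1.06 times that median. About 31.7% of the 31-base words of the Myh7 transcript also occur in Myh6, the heart heavy chain next to it, and the noncoding genes Mhrt, Gm29015 and Gm31251 overlap its exons on the opposite strand, so its count depends on how shared reads were divided. Myh6 itself was 120, 146 and 201 in the 3 libraries, within its range of 76.5 to 309 over the 16.

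**Figure D2:**
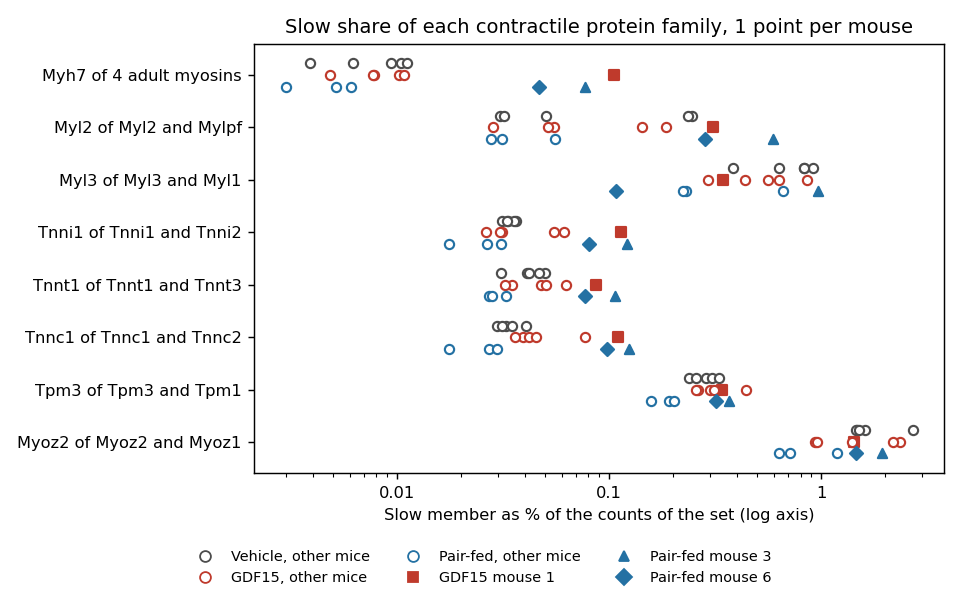
Each slow member as a percent of its own counts plus those of its fast counterpart or counterparts (log axis), 1 point per mouse and 1 row per protein family, with the groups offset within a row. The filled symbols lie to the right of all other mice in the Myh7, Myl2, Tnni1, Tnnt1 and Tnnc1 rows, whereas pair-fed mouse 6 is the lowest mouse in the Myl3 row.

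The slow light chains did not vary as a pair. Myl2 (chr5:122100951-122113472), the slow and ventricular regulatory light chain, was 183, 20.9, 183, 22.6 and 35.8 in vehicle mice 1 to 5. It was 277, 20.1, 40.8, 104, 136 and 41.8 in GDF15 mice 1 to 6 and 29.3, 440.2, 20.0, 48.1 and 233 in pair-fed mice 2 to 6. The 3 libraries were again the highest, but vehicle mice 1 and 3 lay close behind them, and over the other 13 libraries Myl2 still ranged 9.18-fold, from 20.0 to 183.

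Myl3 (chr9:110741861-110769798), the slow and ventricular essential light chain, was 826, 886, 876, 395 and 707 in vehicle mice 1 to 5. It was 414, 417, 567, 824, 656 and 340.2 in GDF15 mice 1 to 6 and 320.2, 963, 694, 277 and 124 in pair-fed mice 2 to 6. The highest and the lowest Myl3 values of all 16 libraries thus belonged to pair-fed mice 3 and 6, both of them high in Myh7, while 4 of the 5 vehicle mice lay at 707 or higher. Myl3 in pair-fed mouse 6 was 0.189 times the median of the 13 other libraries, where Myh7 was 6.82 times. The exons of Myl2 overlap Ccdc63 and those of Myl3 overlap Pth1r on the opposite strand, and how the counting treated strand is not given in the sources used here. On counts, Myl3 made up 0.108% to 0.963% of Myl3 plus Myl1, its fast counterpart, and Myl2 0.0278% to 0.590% of Myl2 plus Mylpf.

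The 3 slow troponins, which form the calcium switch of the thin filament, were high in the libraries that were high in Myh7, by smaller factors. Tnni1 (chr1:135779434-135810989), the slow inhibitory subunit, was 31.8, 28.3, 28.1, 31.1 and 29.8 in vehicle mice, a range of 1.13-fold. It was 108, 23.3, 27.8, 48.2, 52.9 and 29.0 in GDF15 mice and 31.7, 109, 23.4, 16.8 and 74.7 in pair-fed mice. The vehicle mice were therefore alike in Tnni1, while the GDF15 and pair-fed groups ranged 4.64-fold and 6.45-fold. The lowest of these values, in pair-fed mouse 5, rested on about 14.7 reads.

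Tnnt1 (chr7:4504570-4516382), the slow tropomyosin-binding subunit, was 104, 75.9, 125, 101 and 122 in vehicle mice, 236, 87.8, 119, 125, 152 and 86.8 in GDF15 mice, and 77.9, 270.3, 80.9, 77.8 and 206 in pair-fed mice. Tnnc1 (chr14:31208312-31211729), the calcium-binding subunit of slow and heart muscle, was 33.1, 28.4, 35.6, 31.4 and 42.4 in vehicle mice, 122, 40.7, 43.1, 45.9, 74.4 and 39.5 in GDF15 mice, and 21.3, 129, 28.5, 33.5 and 105 in pair-fed mice. GDF15 mouse 5 came next after the 3 libraries in all 3 slow troponins, although its Myh7 was 70.6, close to the median of the 13 libraries. In GDF15 mouse 1 and pair-fed mice 3 and 6, Tnnc1 was 3.42, 3.62 and 2.94 times, and Tnnt1 2.34, 2.67 and 2.03 times, the median of the other 13. The slow troponins were each at most 0.124% of the counts of slow plus fast subunit (Tnni2, Tnnt3 and Tnnc2), and the fast subunits varied little, with a range over 16 libraries of 1.19-fold to 1.26-fold.

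Tpm3 (chr3:90072649-90100902), the slow tropomyosin, varied least of the members. Its values were 499, 492, 540.5, 603 and 657 in vehicle mice, 705, 512, 611, 593, 739 and 567 in GDF15 mice, and 426, 758, 411, 507 and 615 in pair-fed mice. The whole range was 1.85-fold, and of the 3 libraries only those of pair-fed mouse 3 and GDF15 mouse 1 were among the 3 highest. The gene also makes tropomyosins of non-muscle cells, and 70.4% of the 31-base words of its transcript occur in Tpm3-rs7, so the value is not that of slow fibres alone.

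Myoz2 (chr3:123006206-123035015) encodes calsarcin-1, a Z-disc protein of slow and heart muscle that binds calcineurin. It was 392, 403, 685, 382 and 392 in vehicle mice, 412, 254, 387, 630.2, 575 and 270.4 in GDF15 mice, and 193, 536, 312, 215 and 407 in pair-fed mice. None of the 3 libraries was among its 3 highest, which came from vehicle mouse 3 and GDF15 mice 4 and 5. Csrp3 (chr7:48830398-48848033) encodes muscle LIM protein, a Z-disc protein linked to the sensing of stretch. It was 296, 223, 412, 214 and 224 in vehicle mice, 976, 149, 320.3, 428, 379.7 and 134 in GDF15 mice, and 111, 494, 187, 184 and 226 in pair-fed mice. GDF15 mouse 1 was the highest in Csrp3 at 4.37 times the median of the 13 libraries, whereas pair-fed mouse 6 was at 1.02 times it.

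Between the groups, no member was called in any of the 3 comparisons, and in no comparison did the values of a member separate the groups. For GDF15 against pair-fed, which holds food intake alike, 0 of 9 members passed an adjusted p of 0.1 with a log2 fold change over 0.6 in size (limma on log2(normalized count + 1), Benjamini-Hochberg over 11841 genes), against 0.279% of all genes tested. Values that do not overlap were found in 0 of 9 members and 1.77% of genes. An unadjusted p under 0.05 was reached by 0 of 9 members and 13.2% of genes. The log2 fold change was positive in 7 of 9 members, with a median of 0.18 beside 0.00 over all genes, and it ranged from -0.17 in Myh7 (SE 0.79) to 0.58 in Csrp3 (SE 0.42). This lean rested on single libraries, since the median was -0.05 with 4 of 9 positive without GDF15 mouse 1, -0.03 and -0.01 without pair-fed mouse 2 or 4, and 0.49 with 9 of 9 positive without pair-fed mouse 3. The interval of Myh7, -1.83 to 1.499 at 95%, includes a difference of over 2-fold either way.

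For GDF15 against vehicle, 0 of 9 members were called, against 0.304% of genes, and values that do not overlap were found in 0 of 9 and 1.65%. No member had an unadjusted p under 0.05, which 11.0% of genes had. The largest differences were in Tnnc1 at 0.70 on the log2 scale (SE 0.40, limma adjusted p = 0.561) and in Myh7 at 0.63 (SE 0.79, limma adjusted p = 0.835). The Myh7 difference rested on the library of GDF15 mouse 1, since without it the log2 fold change was -0.00. The median over members was 0.28 beside 0.00 over all genes, and it too was -0.00 without that library, with 4 of 9 positive in place of 7.

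For pair-fed against vehicle, 0 of 9 members were called, against 0.819% of genes, and values that do not overlap were found in 0 of 9 and 5.44%. One member, Myl3, had an unadjusted p under 0.05, which 18.9% of genes had. Myl3 was lower in pair-fed mice by a log2 fold change of -0.92 (SE 0.41, 95% interval -1.78 to -0.06). Its adjusted p was 0.232 in limma, from an unadjusted p-value of 0.0379. Its means were 476 ± 344 in pair-fed and 738 ± 204 in vehicle mice (SD, n = 5 each). Without pair-fed mouse 3 alone its difference was -1.26 with an adjusted p of 0.0601 in limma, and it was then called. In that fit 157 of the 11841 genes tested were called, where 97 were called with all libraries. Of the others, Myoz2 stood at -0.50 (SE 0.28), Csrp3 at -0.32 (SE 0.44) and Tpm3 at -0.07 (SE 0.14). On the other side of 0 were Myh7 at 0.80 (SE 0.83), Tnnc1 at 0.52 (SE 0.42), Myl2 at 0.46 (SE 0.87), Tnni1 at 0.42 (SE 0.44) and Tnnt1 at 0.23 (SE 0.33). The medians of the members and of all genes were 0.23 and 0.00, and that of the members was -0.16 without pair-fed mouse 3, with 3 of 9 positive in place of 5, and 0.05 without pair-fed mouse 6.

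**Figure D3:**
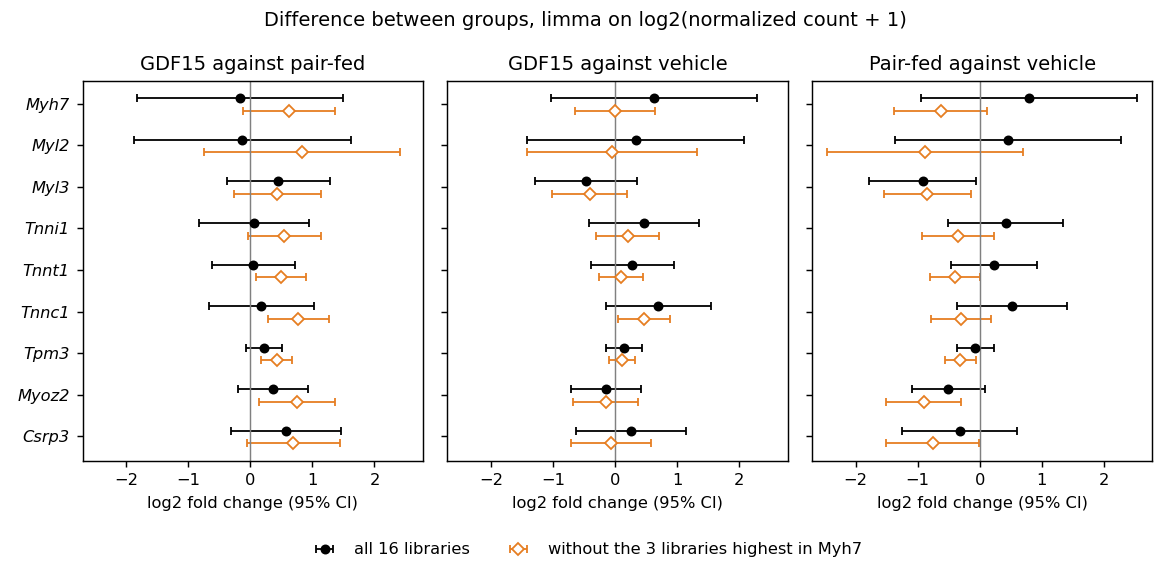
Log2 fold change of each member with its 95% interval in the 3 comparisons, from limma on log2(normalized count + 1), with all 16 libraries (filled) and without the 3 libraries highest in Myh7 (open diamonds). With all libraries only the interval of Myl3 for pair-fed against vehicle leaves out 0, and without the 3 libraries all 9 members are positive for GDF15 against pair-fed and all 9 are negative for pair-fed against vehicle.

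The 3 libraries set the size and in part the direction of these differences. Without them the median log2 fold change of the members was 0.62 for GDF15 against pair-fed, -0.00 for GDF15 against vehicle and -0.63 for pair-fed against vehicle, and 9, 4 and 0 of the 9 were positive. Still no member was called. An unadjusted p under 0.05 was then reached by 4 of 9 members for GDF15 against pair-fed (15.0% of genes), 1 of 9 for GDF15 against vehicle (10.1% of genes) and 4 of 9 for pair-fed against vehicle (17.8% of genes), in limma on the 13 libraries. The smallest adjusted p for GDF15 against pair-fed was that of Tpm3, 0.101 in limma with a log2 fold change of 0.43 (SE 0.12), and for pair-fed against vehicle that of Myoz2, 0.106 in limma with -0.90 (SE 0.29). Only 3 pair-fed libraries remain in these values, and the 2 removed from that group were among the 3 highest libraries in the 5 members named above.

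The members varied more between mice of a group than most genes did. The within-group SD of log2(normalized count + 1), pooled over the groups with 13 degrees of freedom, was 1.61 for Myl2 and 1.53 for Myh7, beside a median of 0.17 over the 11841 genes tested. It was 0.82 for Csrp3, 0.79 for Tnni1, 0.76 for both Tnnc1 and Myl3, 0.61 for Tnnt1, 0.52 for Myoz2 and 0.26 for Tpm3. Of the 9 members, 7 lay above the 95th percentile of all tested genes, and all 9 lay above it among the 501 genes closest to each in mean level.

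This wide spread rested in part on the 3 libraries. Without them, with 10 degrees of freedom, the SD was 0.56 for Myh7, 0.38 for Tnni1, 0.30 for Tnnc1 and 0.28 for Tnnt1, beside a median of 0.17 over all genes. It was 1.23 for Myl2, 0.59 for Csrp3, 0.55 for Myl3, 0.47 for Myoz2 and 0.18 for Tpm3. Of the 9 members, 1, Myl2, then lay above the 95th percentile of all tested genes, and 5 lay above it among the genes closest in level, namely Myh7, Myl2, Myl3, Myoz2 and Csrp3. The 3 slow troponins and Tpm3 no longer did.

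The vehicle group was not alike in every member. Its SD on this scale was 0.08 for Tnni1 and 0.21 for Tnnc1 but 1.55 for Myl2, which differed 8.77-fold between vehicle mice. In pair-fed mice the SD was 2.00 for Myh7, 1.91 for Myl2, 1.15 for Tnnc1 and 1.16 for Myl3.

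**Figure D4:**
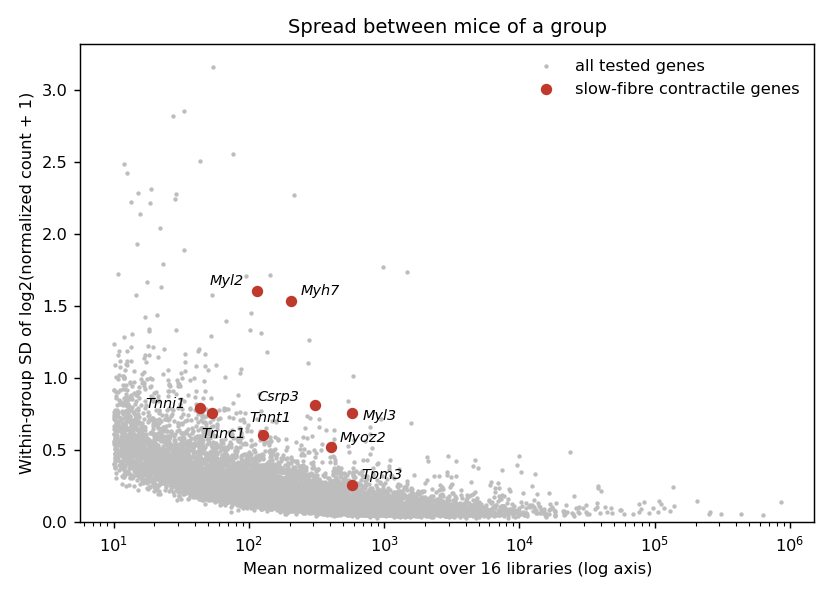
Within-group SD of log2(normalized count + 1) against mean normalized count (log axis) for the 11841 genes tested (grey) and the 9 members (red). Myl2 and Myh7, at 1.61 and 1.53, lie above most genes of similar level, and Tpm3, at 0.26, is the lowest member.

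Because the libraries fall into separate clusters in Myh7, its relation to the other members is given within the 13 libraries that were alike, on log2 values with group means subtracted. There, none of the 8 members was related to Myh7 at an adjusted p under 0.05. Removing the 3 highest Myh7 values leaves a range of 3.37-fold in Myh7, so a weak relation is partly set by that choice. Pearson's r with Myh7 lay between -0.57 for Myoz2 (permutation p = 0.0445, adjusted p = 0.229 over 8 relations, Spearman's rho = -0.60 with permutation p = 0.0325 and adjusted p = 0.225) and 0.03 for Tpm3 (permutation p = 0.924, adjusted p = 0.957, rho = 0.01 with permutation p = 0.978). Without the 2 mice farthest from the Myh7 median the r of Myoz2 was -0.19. For Tnni1, Tnnt1 and Tnnc1, which were high with Myh7 in the 3 libraries, r was -0.02, -0.14 and -0.22 among the rest.

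Among the 13 libraries some pairs of other members varied together. Of the 36 pairs of members, 9 had a permutation p for Pearson's r, adjusted over the pairs, under 0.05, and none of the 9 involved Myh7. By Spearman's rho 3 pairs were under 0.05, again none of them with Myh7. The share of pairs of all genes that reach this limit was not computed, so these counts cannot be set against a background. The closest were the Z-disc genes Myoz2 and Csrp3, with r = 0.91 (adjusted permutation p = 0.00072) and rho = 0.96 (adjusted permutation p = 0.00036), and r was 0.86 without the 2 mice farthest from the median of Myoz2. Myl3 and Myoz2 had r = 0.75 (adjusted permutation p = 0.0251) and rho = 0.80 (adjusted permutation p = 0.0244). Tnnc1 and Tpm3 had r = 0.79 (adjusted permutation p = 0.0245) but rho = 0.63 (adjusted permutation p = 0.111), and r was 0.53 without the 2 mice farthest from the median of Tnnc1. The points share library depth and scaling. The permutations moved values with group means subtracted freely over all mice, so these p-values may be too small.

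**Figure D5:**
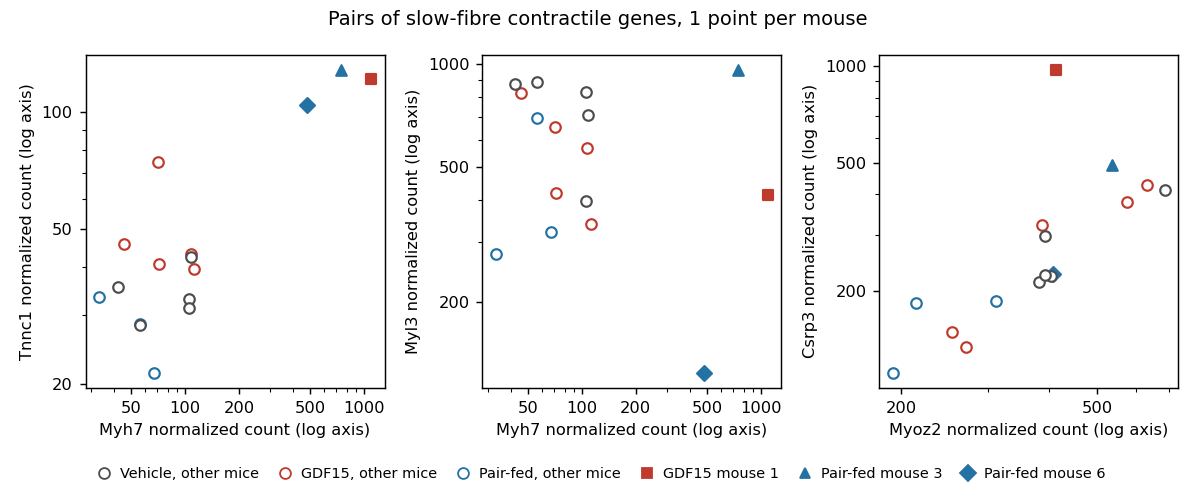
Normalized counts of 3 pairs of members on log axes, 1 point per mouse, coloured by group, with filled symbols for GDF15 mouse 1 and pair-fed mice 3 and 6. Tnnc1 is high in the 3 libraries that are high in Myh7, Myl3 is not, and Myoz2 and Csrp3 are ordered nearly alike over the open points.

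Outside the members, the gene whose pattern over the 16 libraries was most like that of Myh7 was Atp2a2, which encodes SERCA2, the calcium pump of slow and heart muscle, with r = 0.92 on group-centred log2 values among 11840 genes. Its normalized count was 963 in GDF15 mouse 1, 1051 in pair-fed mouse 3 and 851 in pair-fed mouse 6, above all of the other 13 libraries, which lay between 461 and 620. Next came Itga9, Plekha4, Pcsk5, Rtl8b, Mss51, Rims4, Odf3l2, Spen and Txndc16, with r from 0.86 down to 0.75, and Tnni1, Tnnc1 and Tnnt1 ranked 4, 5 and 6 of all genes at 0.85, 0.84 and 0.83, against -0.02, -0.22 and -0.14 within the 13 libraries. Tpm3 ranked 57, Myl2 157, Csrp3 207, Myoz2 1836 and Myl3 7924. Within the 13 libraries r was 0.34 for Atp2a2, 0.15 for Mss51, 0.39 for both Rims4 and Spen, 0.42 for Txndc16, 0.49 for Pcsk5 and 0.51 for Plekha4. It was 0.60 for Odf3l2, 0.75 for Rtl8b and 0.82 for Itga9, so r was lower without the 3 libraries in all 10 genes, by little in Itga9 and Rtl8b. The ranks rest on 2 separate clusters of libraries in Myh7 and are descriptions of genes picked for their likeness.

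Of 18 other genes of slow and oxidative fibres, 0 were called for GDF15 against pair-fed and against vehicle, and 2 were called lower in pair-fed than in vehicle mice, where 0.279%, 0.304% and 0.819% of all genes were called in these comparisons in either direction. They were Casq2, the slow and heart calsequestrin, at -0.82 (SE 0.24, limma adjusted p = 0.0643) and Fabp3, a fatty acid-binding protein, at -0.65 (SE 0.19, limma adjusted p = 0.0667). The median of these 18 was -0.32 in that comparison, where that of the 9 members was 0.23 with all libraries, -0.16 without pair-fed mouse 3 and -0.63 without the 3 libraries. Casq2 lost its call under 9 of 25 alternatives and Fabp3 under 10 of 25. Of 15 fast contractile genes 1 was called (0.819% of all genes in that comparison), Myh1, lower in pair-fed than in vehicle mice at -0.68 (SE 0.14, limma adjusted p = 0.0123), and 13 of the 15 were positive with a median of 0.17.

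Of 27 regulators of the slow programme, 1 was called, in GDF15 against pair-fed (0.279% of all genes) and in pair-fed against vehicle (0.819%). Tead4, a TEAD factor that binds the CATTCC element, was 102 to 176 in vehicle, 81.8 to 157 in GDF15 and 49.6 to 89.0 in pair-fed mice. It was higher in GDF15 than in pair-fed mice by 1.01 on the log2 scale (SE 0.19, limma adjusted p = 0.0158) and lower in pair-fed than in vehicle mice by a log2 fold change of -0.996 (SE 0.19, limma adjusted p = 0.0103). On the deposited log2 values these differences were 0.35 and -0.35, under the fold threshold, with limma adjusted p of 0.0292 and 0.0160. In the 3 libraries high in Myh7 Tead4 was at 81.8, 61.2 and 60.6. Of 18 Z-disc and stretch-sensing genes tested, 0 were called in each comparison by limma, with medians within 0.04 of 0.

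Heart muscle shares many of the members, and 5 of its 8 markers could be read here. Tnni3 and Ryr2, which define heart muscle, had group means of at most 3.42 and 5.07 normalized counts, and Nppa, Nppb and Myl7 were not analysed here. The summed heart markers were 375, 332 and 422 in GDF15 mouse 1 and pair-fed mice 3 and 6, ranks 3, 6 and 2 of the 16 libraries. The other 13 libraries ranged from 244 to 620, the highest being that of GDF15 mouse 5. Embryonic and regenerating fibre markers summed to 214, 333 and 388 in these libraries, the last being the highest of the 16, and to 163 to 369 in the others. Satellite cell markers were highest in GDF15 mouse 1, at 409, and red blood cell and Schwann cell markers were highest in pair-fed mouse 3, at 3688 and 1052. Smooth muscle, endothelium, fibro-adipogenic, adipocyte and macrophage markers had no maximum in the 3 libraries, and endothelium markers were lowest in GDF15 mouse 1. Of all these markers Kdr, an endothelial receptor, was called lower in GDF15 than in vehicle mice (0.304% of all genes called). Cnn1, a smooth muscle gene, was called lower in pair-fed than in vehicle mice (0.819% of all genes called). Kdr was also lower in pair-fed than in vehicle mice, at -0.50 (SE 0.09, limma adjusted p = 0.00473), under the fold threshold. For GDF15 against pair-fed Kdr stood at -0.16 (SE 0.08, limma adjusted p = 0.436). The part of other cells, or of the piece of muscle taken, in the values of the 3 libraries was not tested.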

How the data were processed

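Total RNA of snap-frozen tibialis anterior from 5 vehicle, 6 GDF15 and 5 pair-fed mice was sequenced as paired reads of 50 bases from a directional library. After trimming (Trim Galore), the authors estimated transcript abundance with Salmon, on build mm10, and scaled the libraries by DESeq2, per the labels and the study's methods; versions, annotation and strand setting are not given in the sources used here. The authors deposited log2 values for 14538 genes, between 7.32 and 19.96, of which 8459 lie at the lowest value, a count of 0. They have the form of a variance-stabilizing transformation and were inverted in closed form to normalized counts; low values were whole multiples of what 1 read is worth (within 0.1 read) in 82.2% to 95.3% of cases for single-transcript genes and in 21.1% to 26.3% where a gene has more than 4 transcripts, so whole reads were not recovered and no count test was run.

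The 11841 genes whose normalized counts averaged 10 or more were fitted on log2(normalized count + 1) in all 3 groups with limma 3.58.1 in R 4.3.3 (lmFit, contrasts.fit, eBayes with trend), two-sided, with Benjamini-Hochberg adjustment over all of them, and called at adjusted p under 0.1 and a log2 fold change over 0.6 in size. Shares were compared by exact permutation over mice and relations with 100000 permutations (Python 3.11.15, numpy 2.4.6, pandas 2.3.3, scipy 1.17.1). For relations, group-centred values were moved freely over all mice, so their p-values may be too small. Scripts were tested on simulated data. Gene positions came from GENCODE vM21 (GRCm38). The alternatives were other pseudocounts, minimums, scalings, thresholds and fits, the deposited values, a replicate block, depth as a covariate and each library left out, with the 3 libraries highest in Myh7 left out added after seeing the data.

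The text names every member and its fast counterpart, the genes of the lists that were called, defining markers near 0, and the 10 other genes most like Myh7 over 16 group-centred log2 values. The members, lists and tests were chosen with earlier results of these data known. Each mouse gave 1 library. Mouse numbers recur across groups but name different animals, and same-numbered libraries did not deviate together (r from -0.10 to 0.07 over 14 pairs), so the fits hold no block.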

Additional observations from a re-analysis of the deposited data

Results flagged for a closer look

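Of 30 groups of values (9 members and the Myh7 share in 3 groups), 5 held a mouse whose gap to its nearest neighbour took more of the group's range than Dixon's 95% limit. GDF15 mouse 1 was that mouse in 4 of them: in Myh7 with a normalized count of 1094, where the next GDF15 mouse had 112, in Tnni1 with 108 (next 52.9), in Csrp3 with 976 (next 428) and in the Myh7 share of adult heavy chain counts with 0.106% (next 0.0108%). Vehicle mouse 3 was flagged in Myoz2 with 685, the other 4 vehicle mice lying between 382 and 403. The 2 high pair-fed mice were not flagged, since each has the other as its neighbour. The limit was applied to normalized counts and shares, not to log2 values. Its chance rate of about 1 in 20 groups assumes normally distributed values, which was not checked. The flags of Myh7 and of its share rest on the same Myh7 counts. The cause was not tested.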

How the results depend on the processing

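No member was called in any comparison under the alternatives run, except Myl3 for pair-fed against vehicle without pair-fed mouse 3 (0 to 1 members called over the libraries left out). In the fit that called Myl3, 157 of 11841 genes were called. Leaving out the 3 libraries highest in Myh7, an alternative added after seeing the data, turned the log2 fold change of Myh7 to 0.62, -0.0041 and -0.63 (GDF15 against pair-fed, GDF15 against vehicle, pair-fed against vehicle) and of Myl2 to 0.83, -0.052 and -0.88; for pair-fed against vehicle it turned Tnni1 to -0.35, Tnnt1 to -0.39 and Tnnc1 to -0.30, and for GDF15 against vehicle Csrp3 to -0.065. It turned the difference in Myh7 share to 0.00353 for GDF15 against pair-fed and -0.00346 for pair-fed against vehicle, the number of members related to Myh7 by Pearson's r from 6 to 0 (with all libraries 4 by Spearman's rho, Tnni1, Tnnt1, Tnnc1 and Tpm3), and the number above the 90th percentile of spread from 8 to 5. With all libraries but no group means subtracted, none was related by rho (smallest adjusted permutation p = 0.0538). In that setting Csrp3 was no longer related by Pearson's r (adjusted permutation p = 0.0550). With depth as a covariate Myh7 was 0.61 for GDF15 against pair-fed; on the deposited values Tnni1 and Tnnt1 were -0.0036 and -0.0020 there.

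With 1 library left out, the values that changed sign ranged as follows. For GDF15 against pair-fed they were -0.80 to 0.45 for Myh7, -0.61 to 0.49 for Myl2, -0.25 to 0.41 for Tnni1, -0.13 to 0.33 for Tnnt1, -0.12 to 0.52 for Tnnc1 and -0.0193 to 0.00920 percentage points for the Myh7 share. For GDF15 against vehicle they were -0.0041 to 0.91 for Myh7, -0.052 to 0.75 for Myl2, -0.27 to 0.020 for Myoz2 and -0.065 to 0.51 for Csrp3. For pair-fed against vehicle they were -0.16 to 0.94 for Myl2, -0.052 to 0.39 for Tnnt1 and -0.20 to 0.021 for Tpm3.

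Genes called numbered 33, 36 and 97 in the 3 comparisons, 7, 9 and 17 on the deposited values, 257, 91 and 754 with no fold threshold and 18, 23 and 56 at an adjusted p under 0.05. They numbered 19 for GDF15 against vehicle with depth as a covariate and 62 for GDF15 against pair-fed without the 3 libraries, and with 1 library of the groups compared left out 15 (without pair-fed mouse 5) to 62 (without pair-fed mouse 3), 21 (without GDF15 mouse 2) to 37, and 60 (without pair-fed mouse 5 or 6) to 157 (without pair-fed mouse 3). Without pair-fed mouse 6, which enters GDF15 against vehicle only through the shared spread, 38 genes were called there. Casq2 lost its call under 9 of 25 alternatives, Fabp3 under 10 of 25 and Cnn1 under 7 of 24; Myh1 lost it without pair-fed mouse 2 (-0.58), and Tead4 (0.35 and -0.35) and Kdr (-0.51) on the deposited values. The mouse number as a replicate block gave 20 genes for GDF15 against vehicle and called no member; it turned Tnni1 to -0.088 and Tnnt1 to -0.040 for GDF15 against pair-fed and Csrp3 to 0.0050 for pair-fed against vehicle. The causes were not tested. About 14.7 reads lie behind the lowest member value, and a Myh7 difference anywhere from -1.83 to 1.499 on the log2 scale lies within the 95% interval for GDF15 against pair-fed.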
